A study of Mus musculus with 18 samples.

Results

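The inhibitory immune receptors and checkpoint genes examined here comprised 9 genes of the 18204 in the deposited table: Gm49339, Lilr4b, Pirb, Pdcd1, Cd274, Sirpa, Pilra, Cd300a and Cd300lf. They were taken by symbol, and the set was selected on the TPM of Pdcd1, Lilr4b and Gm49339 in inhibitor-treated against vehicle samples, in which these 3 genes responded. The inhibitor responses of these 3 genes are therefore given as values without a test. The other 6 genes were tested, and so were all 9 genes between the genotypes. For the 3 chosen genes, the genotype tests reuse the samples on which they were chosen.

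RNA sequencing was done on J774.1, a mouse macrophage cell line, in 6 groups with n = 3 replicates each. Wildtype cells and a Ctbp1/2 double knockout (dKO) received PBS/DMSO vehicle, 1.5 mM MTOB or 0.25 mM 4-Cl-HIPP for 4 h. MTOB and 4-Cl-HIPP are small-molecule inhibitors of CTBP1 and CTBP2, transcriptional co-repressors with a dehydrogenase domain. The comparison asks which inhibitor effects need the CTBPs and which occur without them. The dKO was made with Cas9 and grown out from highly diluted cells, and the number of clones sequenced is not given in the sources used here, so an effect of the knockout and a difference between clones cannot be told apart. Because the doses of the inhibitors differ and both are set against the same vehicle samples, their values are given side by side and were not compared with each other.

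Inhibitory receptors carry immunoreceptor tyrosine-based motifs in their cytoplasmic tails. Once these are phosphorylated by Src family kinases they recruit the phosphatases SHP-1, SHP-2 or SHIP1, which dampen signals from activating receptors. The LILRB and PIR receptors, SIRPα, PILRα and the CD300 family are typical of myeloid cells, while PD-1 is best known from exhausted T cells and its ligand PD-L1 from tumour and antigen-presenting cells.

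Gm49339, Lilr4b and their neighbour Lilrb4a occupy a single locus. In the Gencode M39 annotation of GRCm39, Gm49339 (ENSMUSG00000062593) is a readthrough gene on the plus strand at chr10:51356708-51372709. It spans Lilr4b (ENSMUSG00000112023, named Lilrb4b in that annotation, chr10:51356728-51362799) and Lilrb4a (ENSMUSG00000112148, chr10:51367027-51372707). All 1441 bases of its canonical transcript fall in exons of the other genes, 7.91% in Lilr4b and 92.1% in Lilrb4a. Every one of its 1411 words of 31 bases also occurs in a transcript of the other 2 genes, as do 100% of the words of Lilrb4a and 34.4% of those of Lilr4b. The quantification thus had to divide reads among overlapping transcripts, and the 3 levels are not independent measurements. The authors used release 28 of the annotation, in which the gene models may differ.

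**Figure D1:**
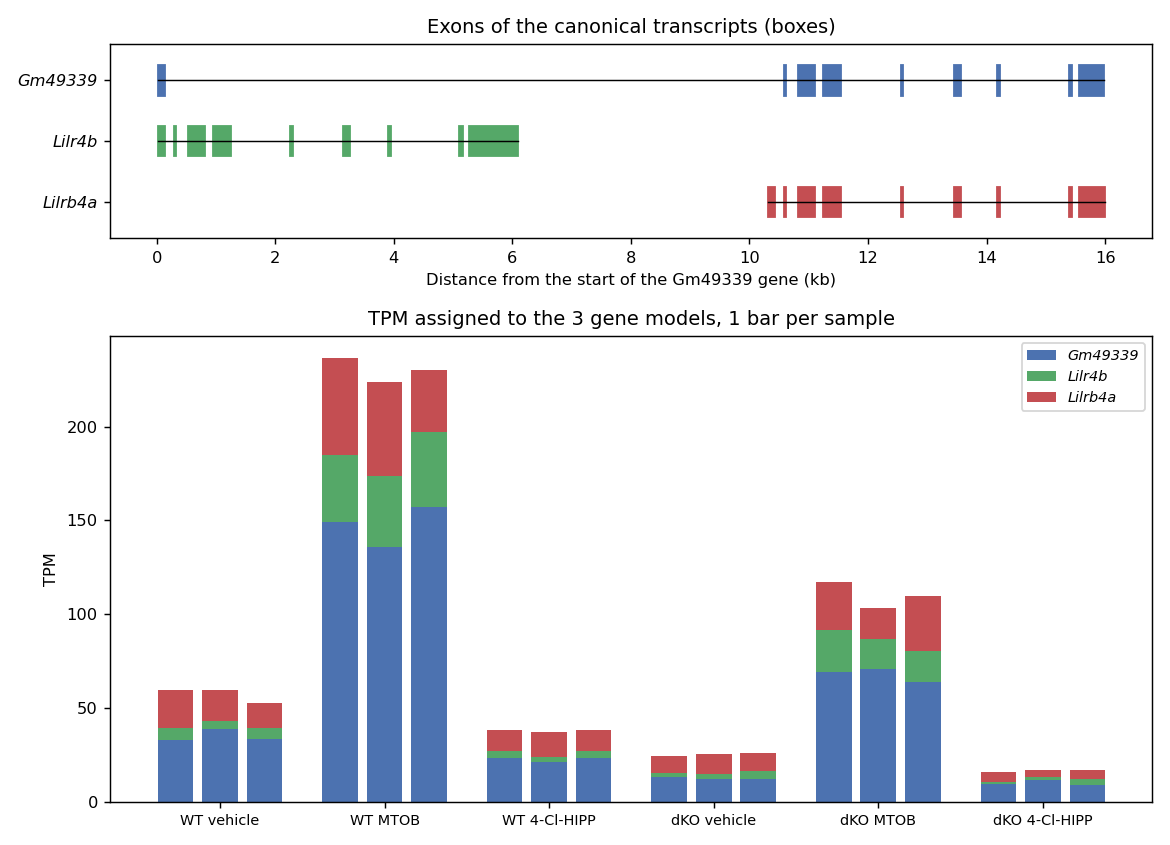
The upper panel maps the exons of the canonical transcripts of Gm49339, Lilr4b and Lilrb4a by their distance from the start of Gm49339 in kb, and each stacked bar in the lower panel is 1 sample, with the TPM of the 3 gene models added up. The sums reached 224 to 237 TPM in wildtype cells with MTOB and 103 to 117 TPM in dKO cells with MTOB, above all other groups.

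The tandem arrangement is also visible upstream. The 250 bases before the start of Lilr4b and those before Lilrb4a, whose gene starts lie 10299 bases apart, are shown because they are nearly the same sequence. Of 249 aligned base pairs, 241 (96.8%) were identical, and capitals mark the bases that differ or have no partner in the alignment (GRCm39, chr10:51356478-51356727 and chr10:51366777-51367026, plus strand).
Lilr4b: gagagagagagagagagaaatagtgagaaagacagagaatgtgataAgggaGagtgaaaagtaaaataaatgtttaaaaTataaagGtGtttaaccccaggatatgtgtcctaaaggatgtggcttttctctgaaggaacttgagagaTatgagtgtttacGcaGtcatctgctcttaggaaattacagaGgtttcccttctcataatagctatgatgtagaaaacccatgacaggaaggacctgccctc
Lilrb4a: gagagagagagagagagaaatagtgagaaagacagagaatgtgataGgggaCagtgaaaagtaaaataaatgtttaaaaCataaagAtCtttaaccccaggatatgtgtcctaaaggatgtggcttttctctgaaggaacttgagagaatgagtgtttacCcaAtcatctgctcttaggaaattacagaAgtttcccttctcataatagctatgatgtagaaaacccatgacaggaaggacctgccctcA
The windows before Pdcd1 (chr1:93980313-93980562, minus strand) and before the canonical start of Cd300a (chr11:114780617-114780866, plus strand) are shown because both genes were higher in dKO cells. Capitals mark matches to the 6 motifs searched on both strands.
Pdcd1: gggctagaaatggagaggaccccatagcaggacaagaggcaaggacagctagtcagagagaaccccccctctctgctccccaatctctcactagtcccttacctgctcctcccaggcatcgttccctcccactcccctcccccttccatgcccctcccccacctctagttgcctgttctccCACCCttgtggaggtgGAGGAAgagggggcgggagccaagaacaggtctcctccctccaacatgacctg
Cd300a: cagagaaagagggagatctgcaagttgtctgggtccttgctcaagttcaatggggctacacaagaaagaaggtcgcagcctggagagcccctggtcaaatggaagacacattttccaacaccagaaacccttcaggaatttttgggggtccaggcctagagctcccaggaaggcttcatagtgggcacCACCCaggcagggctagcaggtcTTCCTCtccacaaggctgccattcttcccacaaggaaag
Each of the last 2 windows held 1 match to the PU.1 and ETS core GAGGAA, found in 22.9% of 21770 promoters of this length, and 1 to the KLF motif CACCC, found in 52.9%. The GAGGAA match ended 48 bases before the start of Pdcd1 on its own strand, and 34 bases before Cd300a on the opposite strand. These matches do not overlap. The Lilr4b and Lilrb4a windows contained no match to AP-1 (TGANTCA, 6.17% of promoters), the antioxidant response element core (TGACNNNGC, 9.69%), the ZEB E-box (CACCTG, 17.7%), the interferon response core (3.32%), GAGGAA or CACCC. A match is a run of letters and not a bound site.

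The 9 genes spanned a wide range of expression. Over 18 samples, Sirpa, which encodes the macrophage receptor for the CD47 "do not eat me" signal, was the most abundant with a mean of 131 TPM (a transcript level corrected for length and scaled to the library), above 93.3% of genes. Gm49339 followed with 49.2 TPM, then Pdcd1 with 24.5, Cd300a with 21.3, Lilr4b with 11.7 and Cd300lf with 8.80 TPM. Cd274 (PD-L1), Pirb and Pilra were barely detected, with maxima of 0.933, 1.05 and 1.52 TPM. Their mean normalised read counts were 6.47, 3.98 and 1.85, and they were listed at 0 in 1, 5 and 5 samples. All 9 genes passed the filter on low values, and the last 3 rest on very few reads.

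The order of the levels changed with treatment and genotype. In wildtype cells under vehicle it ran Sirpa, Gm49339, Cd300a, Pdcd1, Cd300lf and Lilr4b, and the ranges overlapped for Cd300a with Pdcd1 and for Cd300lf with Lilr4b. With MTOB, Gm49339 stood above Sirpa in wildtype cells without overlap. In dKO cells under vehicle, Cd300a and Pdcd1 stood above Gm49339, and Gm49339 overlapped with Cd300lf. This order depends on how reads were divided within the Lilrb4 locus. The sum of Gm49339, Lilr4b and Lilrb4a in dKO vehicle samples was 24.4 to 26.0 TPM. Cd300a stood at 23.2 to 24.5 TPM and Pdcd1 at 17.98 to 20.3 TPM in the same samples.

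**Figure D2:**
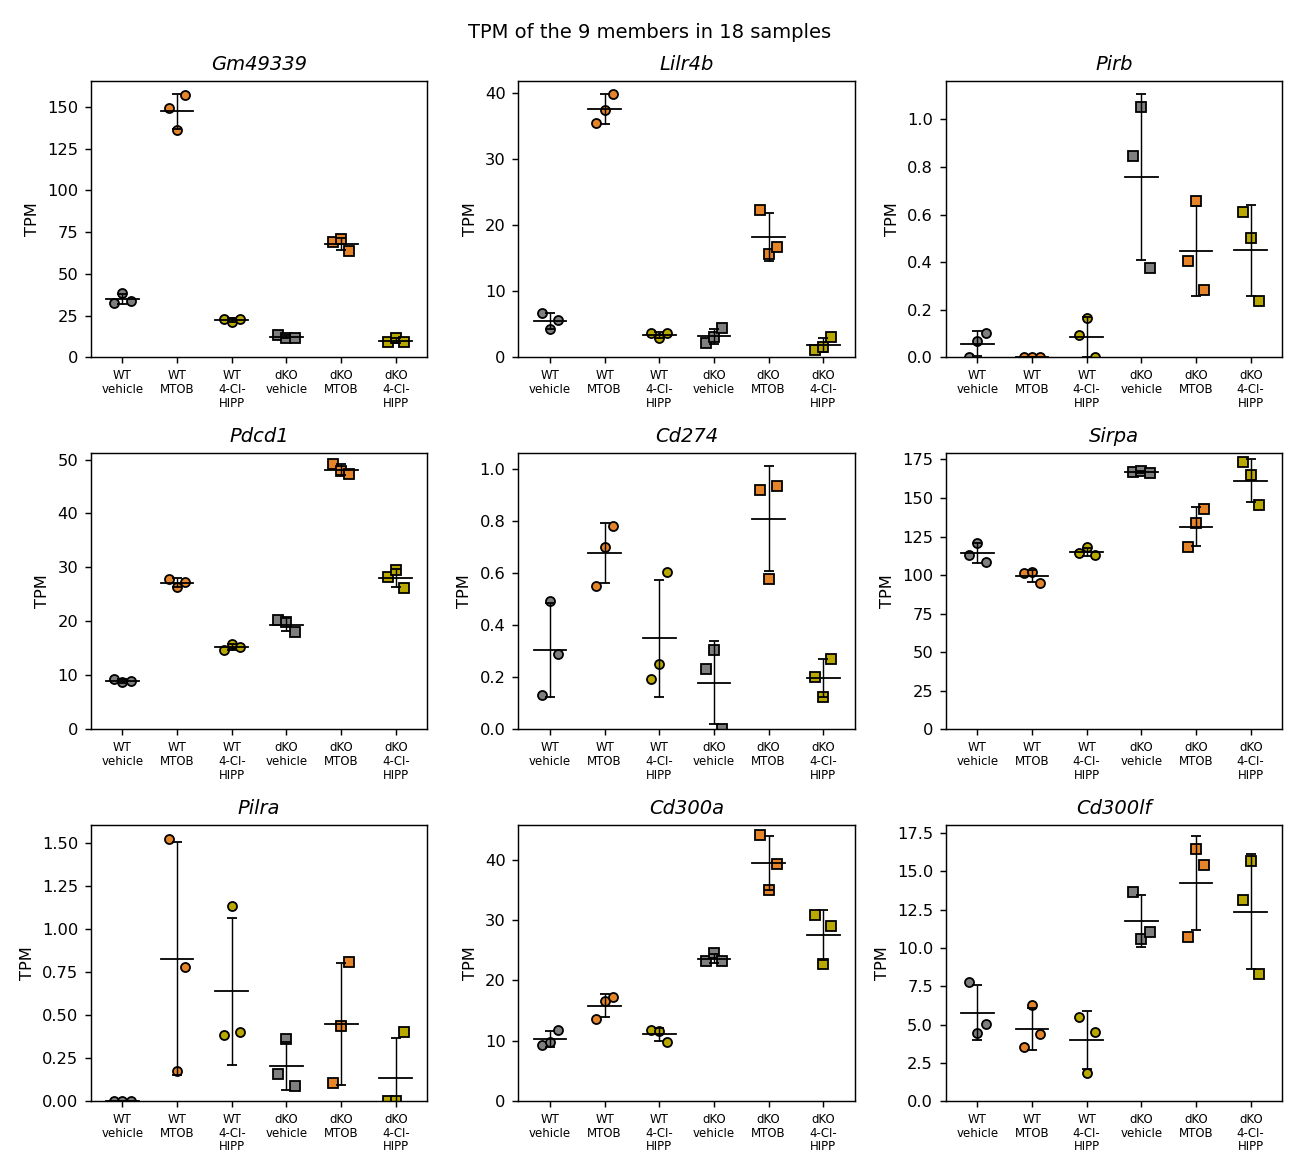
Each panel shows the TPM of 1 gene in the 18 samples (circles, wildtype and squares, dKO, with grey for vehicle, orange for MTOB and olive for 4-Cl-HIPP), with the mean as a line and the SD as a bar (n = 3). Pdcd1 and the Lilrb4 genes separated from vehicle with MTOB, while Pirb, Cd274 and Pilra stayed near or below 1.52 TPM.

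Of the targeted genes, Ctbp1 stood at 204 to 238 TPM in wildtype cells under vehicle and at 24.4 to 25.6 in dKO cells (-3.07 ± 0.13 SE on the log2 scale, adjusted p = 1.61e-10 in limma). Ctbp2 stood at 87.8 to 96.9 and at 73.5 to 79.4 TPM, a log2 fold change of -0.28, so that its transcript level alone does not check the label. The study reported the loss of both proteins from a western blot. Replicates correlated with Pearson r of 0.983 to 0.987 on the log2(TPM + 1) scale. The defining macrophage markers were present, with the summed TPM of 7 of 8 listed markers between 1985 and 2353 in all samples, yet Adgre1 (F4/80) was lower and Itgam (CD11b) higher in dKO cells under vehicle (log2 fold change -1.59 and 1.57). The summed TPM of the 3 T cell markers found in the table ranged from 0.58 to 9.07. The kinase gene Lck was at 0.58 to 7.01 TPM, and Cd3d was at 2.03 to 2.07 TPM in 3 samples of wildtype cells with an inhibitor and at no more than 0.147 TPM in the others. In bulk RNA, fewer cells that express a gene and less RNA per cell cannot be told apart.

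Without CTBPs, the receptors moved in both directions. Under vehicle, 4 of the 9 genes passed the threshold between dKO and wildtype (adjusted p below 0.05 and more than 1.5-fold), against 4.83% of all genes tested. Pdcd1, Cd300a and Pirb were higher in dKO cells and Gm49339 was lower. Under MTOB, 5 of 9 passed, against a background of 4.95%, and under 4-Cl-HIPP 4 of 9, against 4.72%. Pdcd1, Lilr4b and Gm49339 were chosen on their inhibitor responses in these same samples. Their adjusted p-values between the genotypes, and those of Lilrb4a and the locus sum below, are thus not independent of that choice. The levels of Gm49339 and Lilr4b are also not independent, so these counts are not of 9 separate genes. The median log2 fold change of the 9 genes was 0.54, 0.40 and 0.41 in these 3 comparisons, and that of all genes 0.01, 0.00 and 0.00. Gm49339, Pdcd1 and Cd300a passed under every treatment. The 3 comparisons use separate samples, but they share a common estimate of the spread of each gene and the same wildtype and dKO cells.

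Pdcd1 (ENSMUSG00000026285, chr1:93966027-93980312, minus strand) encodes PD-1, the inhibitory receptor that binds PD-L1 and PD-L2. Under vehicle its level was 9.40, 8.68 and 8.91 TPM in wildtype cells and 20.3, 19.9 and 17.98 TPM in dKO cells. Every dKO sample lay above every wildtype sample. The ratio of mean TPM was 2.16, or 1.03 ± 0.06 (SE) on the log2 scale (adjusted p = 1.68e-08 in limma). The log2 fold change was 0.80 under MTOB (adjusted p = 2.72e-07, limma) and 0.83 under 4-Cl-HIPP (adjusted p = 1.79e-07). These treated samples were used in the choice of the gene. None of the 31-base words of its transcript was shared with another gene, so its level does not depend on a paralog.

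The inhibitors each went with more Pdcd1 in both genotypes, as was known when the gene was chosen. With MTOB it stood at 27.9, 26.4 and 27.4 TPM in wildtype and at 49.2, 47.8 and 47.4 TPM in dKO cells, ratios of 3.02 and 2.48 to the vehicle of the same genotype. With 4-Cl-HIPP it stood at 14.8, 15.8 and 15.2 TPM in wildtype and at 28.2, 29.5 and 26.2 TPM in dKO cells, ratios of 1.70 and 1.442. All treated samples exceeded all vehicle samples of their genotype. Pdcd1 in untreated dKO cells was thus above that in wildtype cells with 4-Cl-HIPP and below that in wildtype cells with MTOB, and the highest levels were in dKO cells with MTOB. The response in wildtype minus that in dKO was 0.23 on the log2 scale for MTOB and 0.20 for 4-Cl-HIPP. Whether the responses differ between the genotypes was not tested.

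The Lilrb4 locus behaved differently. Of its genes, Lilrb4a encodes LILRB4 (gp49B), a receptor that restrains macrophages and mast cells. Whether the products of Lilr4b and Gm49339 carry inhibitory motifs was not examined, so their levels are not read as those of inhibitory receptors. Gm49339 stood at 32.9, 38.7 and 33.6 TPM in wildtype vehicle samples and at 13.4, 11.9 and 11.9 TPM in dKO vehicle samples. The groups did not overlap, and dKO differed from wildtype by -1.42 ± 0.09 (SE) on the log2 scale (adjusted p = 4.28e-08 in limma). It was -1.10 under MTOB (adjusted p = 6.89e-07) and -1.09 under 4-Cl-HIPP (adjusted p = 8.31e-07).

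Lilr4b stood at 6.67, 4.25 and 5.62 TPM in wildtype and at 2.21, 3.06 and 4.47 TPM in dKO cells under vehicle, and these ranges overlapped. Its log2 fold change of -0.63 (95% interval -1.13 to -0.14) missed the threshold (adjusted p = 0.110, limma). It was lower in dKO cells under MTOB (-1.02 ± 0.23 SE, adjusted p = 0.00871), while the value under 4-Cl-HIPP was -0.66 (adjusted p = 0.0998). Without the third dKO replicate, which was the highest of its group, the adjusted p was 0.0487 under vehicle and 0.0155 under 4-Cl-HIPP. The neighbour Lilrb4a was lower in dKO cells in all treatments, with log2 fold changes of -0.74, -0.92 and -1.29 (adjusted p = 0.0334, 0.00841 and 0.000552).

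Adding the 3 gene models gave a measure that depends less on how reads were divided between them. The sum was 57.3 ± 3.81 TPM (SD, n = 3) in wildtype and 25.2 ± 0.803 in dKO cells under vehicle. When the sum replaced its parts in the fit, the log2 fold change of dKO against wildtype was -1.15 under vehicle, -1.06 under MTOB and -1.16 under 4-Cl-HIPP (adjusted p = 1.37e-09, 3.07e-09 and 1.22e-09, limma). The locus therefore was at 0.440, 0.477 and 0.432 of its wildtype level, a narrower range than the 0.354, 0.461 and 0.449 of Gm49339 alone.

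The inhibitor responses of the locus, known when the genes were chosen, went in opposite directions for MTOB and 4-Cl-HIPP. With MTOB, Gm49339 stood at 149, 136 and 157 TPM in wildtype and at 69.1, 70.9 and 63.8 TPM in dKO cells, ratios to vehicle of 4.20 and 5.47. Lilr4b stood at 35.5, 37.5 and 39.9 TPM in wildtype and at 22.4, 15.6 and 16.7 TPM in dKO cells, ratios of 6.82 and 5.62. All MTOB samples lay above all vehicle samples of their genotype for both genes. Summed over the locus, the level was 230 ± 6.39 TPM (SD, n = 3) in wildtype and 110 ± 6.92 in dKO cells, ratios of 4.02 and 4.35. The share of the sum assigned to Lilr4b was 9.66% in wildtype vehicle and 16.4% in wildtype MTOB samples, and that of Lilrb4a 29.1% and 19.7%.

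With 4-Cl-HIPP, Gm49339 stood at 23.3, 21.2 and 23.3 TPM in wildtype and at 9.39, 11.8 and 9.21 TPM in dKO cells, ratios of 0.645 and 0.816. All these samples lay below all vehicle samples of their genotype. Lilr4b stood at 3.63, 2.94 and 3.77 TPM in wildtype and at 1.08, 1.63 and 3.07 TPM in dKO cells, ratios of 0.625 and 0.593, and in dKO cells 1 of the 3 samples was within the vehicle range. The ratio of the locus sum was 0.663 in wildtype and 0.651 in dKO cells, closer to each other than the ratios of Gm49339 alone. The difference between genotypes was not tested for the locus.

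The genes with TPM profiles most like those of the responding genes were sought over the 18 samples among 9718 genes with a mean of at least 5 TPM. For Gm49339 they were Stap1 (Pearson r = 0.99), Sdc4 (0.986), Tnf (0.983), Ier3 (0.975) and Swap70 (0.971). For Lilr4b they were Sdc4 (0.965), Clec4e (0.963), Stap1, Plek and Ccl3 (0.961 each). The Pdcd1 profile was closest to Cdkn1a (0.96), Cxcl16 (0.955), Gsap (0.95), Fnbp1l (0.946) and Esd (0.944). The 18 samples form 6 groups and share their libraries between genes, so these correlations describe the profiles only.

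Cd300a and Cd300lf encode lipid-binding inhibitory receptors and lie on chromosome 11 (chr11:114768840-114795480, plus strand, and chr11:115007040-115024818, minus strand). Under vehicle, Cd300a (ENSMUSG00000034652) stood at 9.28, 9.84 and 11.8 TPM in wildtype and at 23.2, 24.5 and 23.2 TPM in dKO cells. All dKO samples exceeded all wildtype samples. The difference was 1.13 ± 0.12 (SE) on the log2 scale (adjusted p = 1.04e-05 in limma), and it was 1.27 under MTOB (adjusted p = 3.07e-06) and 1.24 under 4-Cl-HIPP (adjusted p = 4.09e-06).

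Cd300lf (ENSMUSG00000047798) stood at 7.81, 4.47 and 5.01 TPM in wildtype and at 13.7, 10.6 and 11.02 TPM in dKO cells under vehicle. The ranges did not overlap, but the log2 fold change of 0.94 (95% interval 0.29 to 1.59) missed the threshold (adjusted p = 0.0645, limma). It was higher in dKO cells under MTOB (1.42 ± 0.30 SE, adjusted p = 0.00548) and 4-Cl-HIPP (1.47 ± 0.30 SE, adjusted p = 0.00425). The call under vehicle was gained without wildtype replicate 1 (adjusted p = 0.0448), and that under 4-Cl-HIPP was lost when only the 2 compared groups were fitted (adjusted p = 0.0975). Cd300a shares 8.57% and Cd300lf 9.59% of their 31-base words with other genes.

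Activating relatives of the same family were measured too. Under vehicle, Cd300e and Cd300ld were higher in dKO cells (log2 fold change 1.64 and 0.71, adjusted p = 6.36e-06 and 1.35e-06, limma). Cd300lb and Cd300c2 had values of 0.42 and 0.56 (adjusted p = 0.000282 and 0.00335, limma) that were below the 1.5-fold limit. For Cd300c2 the ratio of mean TPM was 1.51. Cd300c and Cd300ld3 had values of 0.70 and 0.17 and missed the limit on the adjusted p (0.150 and 0.757). Under MTOB, Cd300c2, Cd300ld and Cd300e passed as higher in dKO cells, and under 4-Cl-HIPP Cd300e alone of these relatives.

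Cd300a was also measured against the inhibitors. With MTOB it stood at 13.6, 16.6 and 17.2 TPM in wildtype and at 44.1, 35.1 and 39.3 TPM in dKO cells, above all vehicle samples of the same genotype. In dKO cells it rose by 0.71 ± 0.12 (SE) on the log2 scale (adjusted p = 0.00200 in limma). In wildtype cells the log2 fold change of 0.57 (95% interval 0.31 to 0.83) had an adjusted p of 0.00864 (limma). It was just under the limit of 0.585 for 1.5-fold on the log2(TPM + 1) scale, while the ratio of mean TPM was 1.54. The values with and without CTBPs differed by -0.14 (95% interval -0.51 to 0.23), and that difference missed the threshold (adjusted p = 0.935). The wildtype value was called in 5 of 17 alternatives. Among them were the fits without wildtype vehicle replicate 3 (0.67) and without wildtype MTOB replicate 1 (0.67).

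Sirpa (ENSMUSG00000037902, chr2:129434039-129474148, plus strand) stood at 113, 121 and 108 TPM in wildtype and at 167, 168 and 166 TPM in dKO cells under vehicle. The groups did not overlap and the difference was larger than the spread between replicates, but the ratio of 1.46 was below the 1.5-fold limit (log2 fold change 0.54 ± 0.07 SE, adjusted p = 4.34e-05, limma). Without wildtype vehicle replicate 2 the value was 0.59 and passed. The values under MTOB and 4-Cl-HIPP were 0.40 and 0.48 (adjusted p = 0.000895 and 0.000155), also below that limit.

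With MTOB, Sirpa stood at 102, 102 and 94.8 TPM in wildtype and at 118, 134 and 143 TPM in dKO cells, below all vehicle samples of each genotype. The log2 fold changes were -0.20 (adjusted p = 0.104, limma) and -0.35 (adjusted p = 0.00518), neither beyond 1.5-fold. With 4-Cl-HIPP the log2 values were 0.01 and -0.05 (95% intervals -0.13 to 0.16 and -0.20 to 0.09), and their signs changed under some alternatives.

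**Figure D3:**
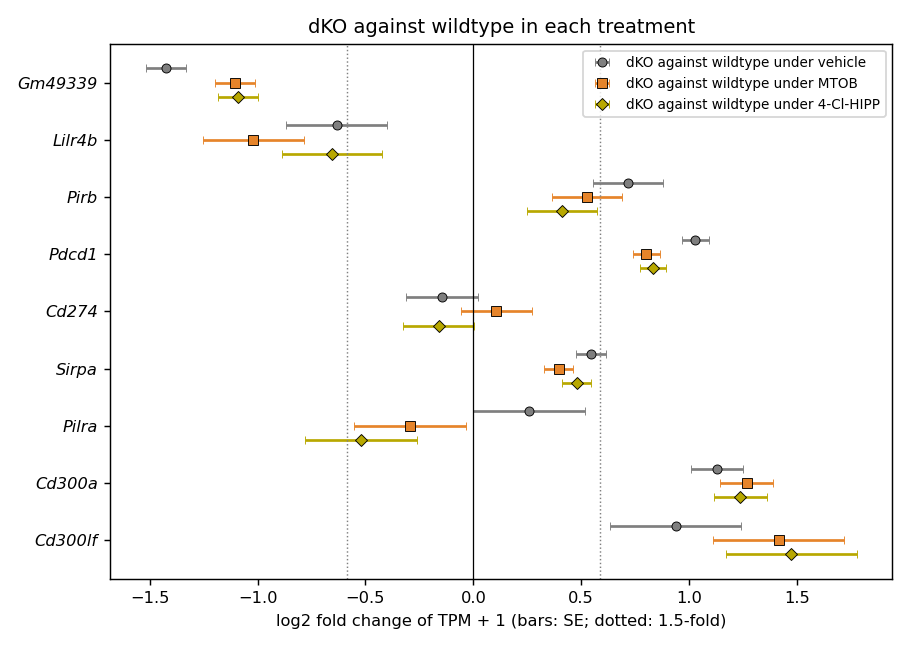
Log2 fold change of TPM + 1 (x axis) of each gene in dKO against wildtype cells under vehicle, MTOB and 4-Cl-HIPP, with SE as bars and dotted lines at 1.5-fold. Pdcd1, Cd300a and Cd300lf lie right of 0 and Gm49339 and Lilr4b left of it under all 3 treatments.

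Pirb, Cd274 and Pilra were weakly expressed. Pirb (chr7:3714408-3723416, minus strand), a receptor for MHC class I, stood at 0, 0.0684 and 0.103 TPM in wildtype and at 0.847, 1.05 and 0.376 TPM in dKO cells under vehicle. The log2 fold change of 0.72 ± 0.16 passed (adjusted p = 0.00799, limma), but not when only the 2 compared groups were fitted (adjusted p = 0.0766). Pirb shares 46.2% of its 31-base words with other genes, 28.3% with Pira12, so reads of the activating Pira genes cannot be separated from it with certainty. Of the listed Pira genes only Pira1, Pira2 and Pira12 had values, so a sum with them does not cover the family. Summed with these Pira genes, the value was 1.01 under vehicle, 1.13 under MTOB and 0.82 under 4-Cl-HIPP (adjusted p = 0.00116, 0.000460 and 0.00629, limma). Pirb alone was below the 1.5-fold limit under MTOB (0.53, adjusted p = 0.0490). It missed both limits under 4-Cl-HIPP (0.41, adjusted p = 0.144). These values depended on the pseudocount: with 0.1 in place of 1, Pirb passed under both inhibitors (2.4 and 1.61), and its value under vehicle was 2.42.

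Cd274 (chr19:29344529-29365495, plus strand), which encodes PD-L1, stood at 0.130, 0.492 and 0.287 TPM in wildtype and at 0.233, 0.304 and 0 TPM in dKO cells under vehicle. The groups overlapped, and the log2 fold change was -0.14 (95% interval -0.50 to 0.21, adjusted p = 0.722, limma). With MTOB, Cd274 stood at 0.551, 0.699 and 0.779 TPM in wildtype and at 0.917, 0.576 and 0.933 TPM in dKO cells, above all vehicle samples of each genotype. The increase passed in dKO cells (0.62 ± 0.16 SE, adjusted p = 0.0344) and missed the threshold in wildtype cells (0.37, 95% interval 0.02 to 0.72, adjusted p = 0.241). The test of the difference between the genotypes gave -0.25 (adjusted p = 0.891). The dKO call was lost without any 1 of the dKO vehicle replicates 1 and 3 and the dKO MTOB replicates 1 and 3 (adjusted p from 0.0645 to 0.147).

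Pilra (chr5:137820214-137834543, minus strand), an inhibitory member of the paired PILR receptors, was listed at 0 in all 3 wildtype vehicle samples. It stood at 1.52, 0.174 and 0.778 TPM in wildtype cells with MTOB and at 0.383, 1.13 and 0.402 TPM with 4-Cl-HIPP. No comparison of Pilra passed (adjusted p = 0.0822 for MTOB in wildtype cells, limma). That comparison did pass in 2 of 16 alternatives, among them without wildtype MTOB replicate 2 (adjusted p = 0.0188). Its log2 fold change ranged from 0.53 to 2.87 over the alternatives.

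Among the 6 genes not picked for their response, 0 passed for MTOB in wildtype cells (limma, against 2.01% of all genes). At an unadjusted p below 0.05 there were 4 of the 6, beside 3008 of all 16383 genes. For MTOB in dKO cells 2 passed, Cd300a and Cd274, against 1.63%. For 4-Cl-HIPP, 0 of 6 passed in wildtype cells (0.14% of all genes) and 0 of 6 in dKO cells (0.153%). At an unadjusted p below 0.05 there were 1 of 6 and 0 of 6, beside 1341 and 1388 of all genes. The difference between the genotypes in the response was called for 0 of 6 genes with MTOB (0.0916% of all genes) and for 0 of 6 with 4-Cl-HIPP (0%), with 0 of 6 at an unadjusted p below 0.05 each time, beside 1128 and 734 of all genes. The 95% intervals of this difference for MTOB were narrowest for Sirpa, from -0.055 to 0.35, and widest for Cd300lf, from -1.39 to 0.44.

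**Figure D4:**
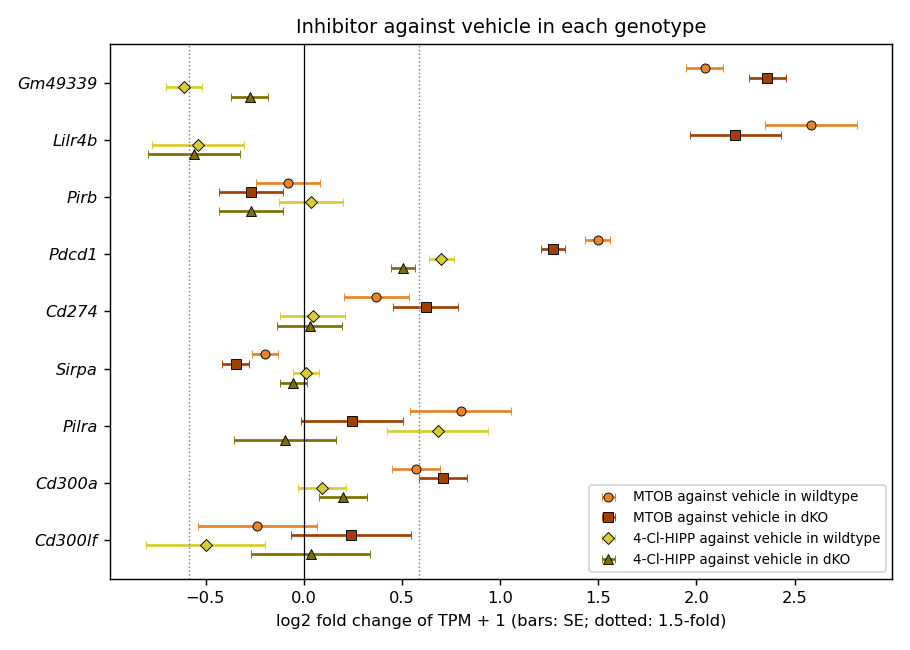
Log2 fold change of TPM + 1 (x axis) of each gene with MTOB or 4-Cl-HIPP against vehicle in wildtype and dKO cells, with SE as bars and dotted lines at 1.5-fold. Gm49339, Lilr4b and Pdcd1, chosen for these responses, lie above 1.2 with MTOB, and with 4-Cl-HIPP only Pdcd1 of the 3 lies right of 0.

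The surrounding pathway was described by lists of genes written from general knowledge. Of the other inhibitory receptors, 20 of 26 listed were found in the table and 19 were tested between the genotypes. Under vehicle, 5 were higher and 3 lower in dKO cells, where 3.28% of all genes were higher and 1.55% lower. The list median was 0.00 against 0.01 for all genes. The lower genes included Lilrb4a, which shares 100% of its 31-base words with Gm49339 and so is not separate from the 9 genes. Lair1, a collagen receptor, stood at 1.56, 1.35 and 2.46 TPM in wildtype and at 17.8, 26.7 and 31.6 TPM in dKO cells (log2 fold change 3.22, adjusted p = 1.23e-07, limma). Fcgr2b, the inhibitory Fc receptor, was lower (-1.56, adjusted p = 5.63e-06), and Clec12a, Pecam1 and Havcr2 (TIM-3) were higher (0.77, 1.10 and 0.84). Pecam1 was weakly expressed, at no more than 0.068 TPM in wildtype and at 0.938 to 1.43 TPM in dKO vehicle samples. Fcgr2b also rose with MTOB in wildtype and dKO cells (1.28 and 1.61, adjusted p = 9.69e-05 and 1.09e-05), and Siglece and Lair1 rose with MTOB in wildtype cells (1.00 and 0.89), where Havcr2 fell by 0.71 on the log2 scale. In all, MTOB changed 4 of 18 in wildtype and 2 of 18 in dKO cells, and 4-Cl-HIPP 0 and 1, against 2.01%, 1.63%, 0.14% and 0.153% of all genes. Of those 18 in wildtype cells with 4-Cl-HIPP, 3 had an unadjusted p below 0.05, as did 1341 of all 16383 genes.

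Of the ligands and checkpoint partners, 14 of 19 were found and 13 tested. Under vehicle, 4 were higher and 1 lower in dKO cells, against 3.28% and 1.55% of all genes, with a list median of 0.35 against 0.01. Cd276 (B7-H3) stood at 4.69, 6.13 and 6.21 TPM in wildtype and at 30.97, 30.8 and 28.7 TPM in dKO cells (log2 fold change 2.23, adjusted p = 1.61e-10, limma). Angptl2, Cd80 and Lgals9 were also higher (1.80, 1.54 and 1.35) and Nectin2 was lower (-0.62). Nectin2 was weakly expressed, at 0.522 to 0.801 TPM in wildtype and at no more than 0.118 TPM in dKO vehicle samples. Cd47, the ligand of SIRPα, rose with MTOB in wildtype cells, from 29.7, 32.5 and 27.1 TPM to 62.0, 54.7 and 55.8 TPM (log2 fold change 0.93, adjusted p = 1.59e-05). In dKO cells its value was 0.46 and below the 1.5-fold limit, and the difference between genotypes missed the threshold (0.47, adjusted p = 0.413). Angptl2, a ligand of LILRB receptors, rose with 4-Cl-HIPP in wildtype and dKO cells (0.97 and 0.72, adjusted p = 6.69e-05 and 0.00139). The ligand gene Pdcd1lg2 was not analysed here.

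Of the effectors and adaptors, 12 were tested. Between the genotypes under vehicle 1 was called, against 4.83% of all genes, the Src family kinase gene Fgr, which was higher in dKO cells (log2 fold change 2.84, adjusted p = 1.47e-08, limma). The phosphatase genes Ptpn6 (SHP-1), Ptpn11 (SHP-2) and Inpp5d (SHIP1) had values of 0.12, 0.05 and 0.39 under vehicle and passed in none of the comparisons of genotypes or of inhibitors. Between the genotypes, Ptpn6 had an adjusted p of 0.0242 under vehicle and 0.000415 under MTOB (limma). Its values there, 0.12 and -0.20, were below the 1.5-fold limit. With MTOB, Dok2, Lyn and Fgr rose in wildtype cells (0.87, 0.62 and 0.89) and Dok2 in dKO cells (0.61). By the adjusted p alone, the MTOB response differed between the genotypes for Ptpn6 (0.32, adjusted p = 0.00980) and Lyn (0.42, adjusted p = 0.0261). Of the activating or paired relatives, 12 of 23 were found and 11 tested, of which 3 were higher in dKO cells under vehicle, Trem1, Cd300e and Cd300ld, and 0 lower, against 3.28% and 1.55% of all genes. Trem1, an amplifier of inflammatory signals, stood at no more than 0.139 TPM in wildtype and at 1.92 to 3.70 TPM in dKO vehicle samples.

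**Figure D5:**
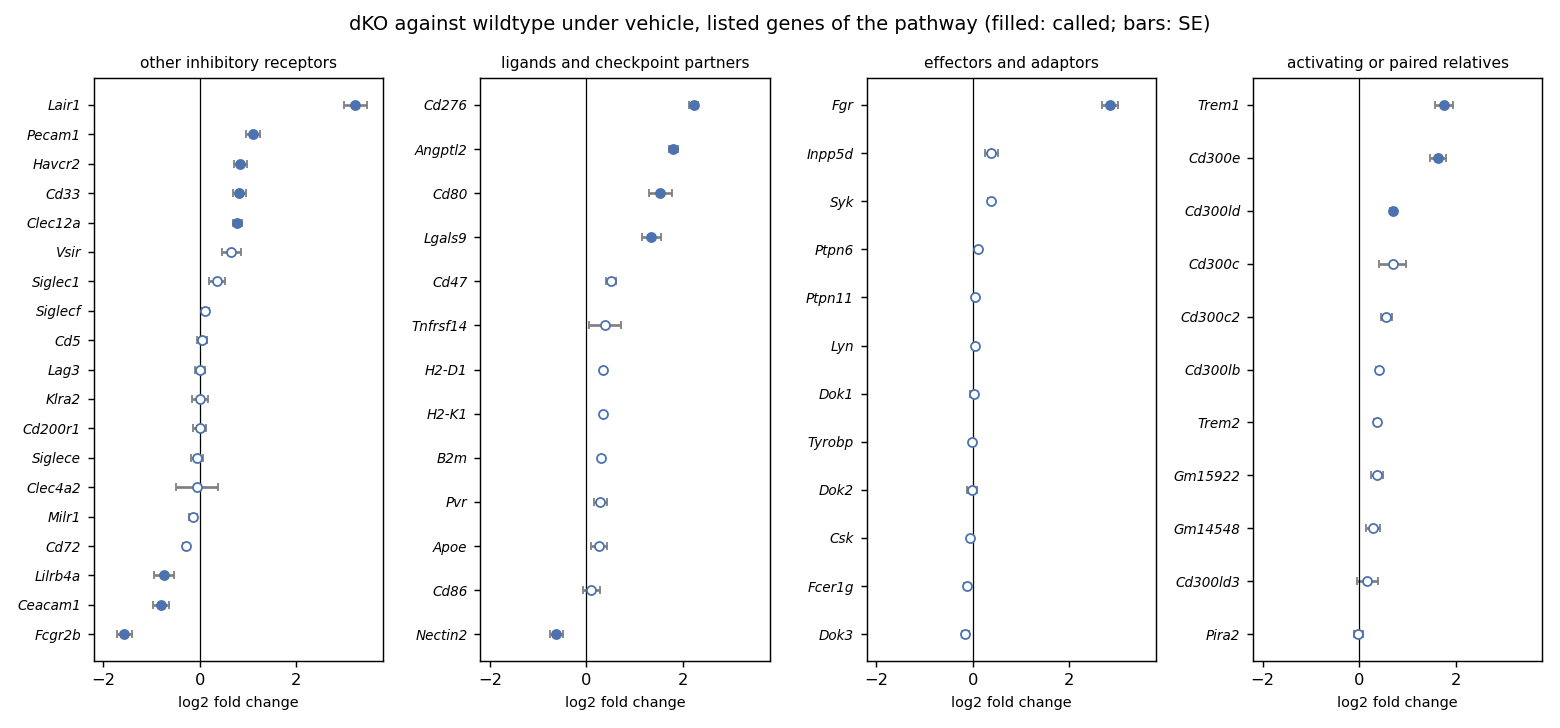
Log2 fold change of TPM + 1 (x axis) of the listed genes of the pathway in dKO against wildtype cells under vehicle, one panel per list, with SE as bars and filled points for genes that passed. Lair1 (3.22), Fgr (2.84) and Cd276 (2.23) lie furthest to the right, and Fcgr2b (-1.56) furthest to the left.

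The macrophage marker Adgre1 moved with some of these results. It stood at 24.6 to 35.3 TPM in wildtype vehicle samples, at 98.3 to 107 TPM with MTOB and at 7.94 to 10.0 TPM in dKO vehicle samples, and its part in the differences of the receptors was not tested.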

How the data were processed

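RNA of J774.1 cells, 18 samples in 6 groups of 3 biological replicates, was sequenced from libraries of an unstranded TruSeq mRNA kit. The labels name polyA RNA and the methods of the study also rRNA depletion. The authors quantified transcripts with Salmon 1.9.0 on the GRCm39 transcriptome of Gencode release 28 with GC correction, and imported gene-level estimates with tximport. They deposited the TPM of 18204 genes per sample, which sum to between 999766 and 999897. The depth of each sample is unknown, since TPM keeps none. The table also holds a signal deposited by the authors, the mean normalized count per gene from DESeq2 1.44.0, and log2 fold changes and adjusted p-values of the authors' own comparisons, which were not used.

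Samples were grouped by genotype and treatment as labelled. The 16383 genes whose mean normalized count exceeded 0.222, its 10th percentile, were fitted as log2(TPM + 1) with 6 group means in limma 3.58.1 (R 4.3.3), with moderation by empirical Bayes and a trend of the variance with the log2 of the mean count. Fold changes are on the log2(TPM + 1) scale, which understates the change of low genes, except ratios, which are of mean TPM. In each contrast, p-values of all fitted genes were adjusted together (Benjamini-Hochberg). Calls needed an adjusted p below 0.05 and a fold change above 1.5, and differences between genotypes in a response the adjusted p alone. The procedure was tested on simulated data. Intervals are 95% intervals of the moderated fit.

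Gene positions, transcripts, 31-base words and promoters came from GRCm39 and Gencode release 39, in which 18087 of the table's genes were matched by identifier. Alternatives were pseudocounts of 0.1 and 0.5, no filter or a mean count of at least 10, no trend, quantile normalization, median centring, a replicate block, only the compared groups, adjusted p alone, paralogs summed, and each sample left out. Named genes were the 9 genes, Lilrb4a, Cd47, Ptpn6, Ptpn11, Inpp5d, Ctbp1 and Ctbp2, up to 5 called genes per list and contrast by smallest adjusted p, the 5 most similar profiles, and paralogs, and from these a selection is given. A listed effector is not reported here. Members, lists and tests were chosen with earlier results of these data known. Promoters were aligned with Biopython 1.88, and figures drawn with matplotlib 3.10.9 (Python 3.11.15, numpy 2.4.6, pandas 2.3.3).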

Additional observations from a re-analysis of the deposited data

How the results depend on the processing

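The counts of genes that passed between the genotypes were 4 under vehicle, 5 under MTOB and 4 under 4-Cl-HIPP, and ranged over the alternatives other than leaving out samples from 3 to 5, 5 to 7 and 3 to 5. When each sample was left out in turn they ranged from 4 to 5, 5 to 6 and 4 to 5. For MTOB in wildtype cells the count of 0 became 2 with a pseudocount of 0.1, 1 with a pseudocount of 0.5 and 1 with the adjusted p alone, and ranged from 0 to 1 when each sample was left out. For MTOB in dKO cells the count of 2 became 1 with a mean count of at least 10, where Cd274 is not tested, and 1 with only the compared groups (adjusted p of Cd274 0.145), rose to 3 with the adjusted p alone (Sirpa, adjusted p = 0.00518), and ranged from 1 to 2 when each sample was left out. The other 4 counts, for 4-Cl-HIPP and for the differences between genotypes, stayed at 0 under every alternative run.

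Replicate numbers did not pair the samples: the deviations of the 45 same-numbered pairs correlated with r from -0.087 to 0.09, and 5 of 18 samples correlated best with their own number. With the replicate block the count for MTOB in dKO cells was 1 (Cd274, adjusted p = 0.0538), and the block changed no other call.

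Small values that did not pass changed sign. In wildtype cells with 4-Cl-HIPP, Pirb became -0.014 with median centring and -0.12 summed with the Pira genes, Cd274 became -0.0055 and Sirpa -0.039 with median centring, and with samples left out Pirb ranged from -0.015 to 0.096, Cd274 from -0.085 to 0.15 and Sirpa from -0.024 to 0.054. In dKO cells with 4-Cl-HIPP, Cd300lf became -0.0029 with quantile normalization, and with samples left out Cd300lf ranged from -0.14 to 0.28, Cd274 from -0.084 to 0.11 and Sirpa from -0.11 to 0.017. For the difference between genotypes, Pirb with MTOB became -0.12 summed with the Pira genes, and Cd274 with 4-Cl-HIPP became -0.14 with a pseudocount of 0.1, -0.01 with quantile normalization and -0.0058 with median centring, and with samples left out ranged from -0.12 to 0.13, and Sirpa from -0.0047 to 0.12. The causes were not tested. Summing the Lilrb4 locus moved the value of Gm49339 in dKO cells from 2.36 to 2.08 with MTOB and from -0.27 to -0.59 with 4-Cl-HIPP. With 3 samples per group and unknown depth, Pirb, Cd274 and Pilra are limited by their few reads.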
